A study of Mus musculus with 4 samples.

Results

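The genes described here are 10 regulators and surface proteins of the blood and endothelial lineages: the receptors Kdr, Flt1 and Tek, the adhesion proteins Pecam1 and Cdh5, and the transcription factors Etv2, Tal1, Lmo2, Runx1 and Gata1. Each was taken from the deposited table through the probe set annotated with that symbol alone. Where a gene has several probe sets the brightest is used, and each of these genes had 1. They are 10 of the 19938 genes measured. The samples were 2 arrays of E14 mouse embryonic stem cells in which Kdm2b was knocked down, and 2 arrays of control E14 cells. E14 is a line of inbred strain 129, so all 4 arrays share a single genetic background. Per the labels' protocols, the cells of both groups were kept on gelatin with 15% serum and 1000 units/ml leukemia inhibitory factor. They were infected with lentiviral vectors at 10 MOI, with puromycin at 2 µg/ml added after 48 h to select transduced cells. The labels give neither the sequence that targets Kdm2b nor the content of the control vector. Whether replicates were separate cultures is not stated either, so every p-value here speaks of the spread between arrays, part or all of which may be technical.

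In the embryo, blood and endothelium arise together from mesoderm that carries the receptor Kdr. The ETS factor Etv2 opens this program, Tal1 and Lmo2 sit in one DNA-bound complex that commits cells to blood, Runx1 is needed for definitive blood stem cells, and Gata1 directs red cells and megakaryocytes. Kdm2b binds unmethylated CpG-rich DNA through a zinc finger and is part of a variant form of the Polycomb complex PRC1, which marks histone H2A and keeps genes off. The question behind the comparison is whether lineage genes with CpG islands depend on this recruitment in stem cells.

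Kdm2b had log2 values of 9.20 and 9.19 in knockdown cells, against 10.74 and 10.64 in control cells, a level 2.82-fold lower. All 12 stem cell markers on the list, Pou5f1, Sox2 and Nanog among them, were past the threshold in neither direction. Their log2 fold changes ran from -0.24 for Tfcp2l1 to 0.30 for Klf4, both named after their values were seen. The adjusted p of Klf4, 0.0514 in limma, lay just outside the threshold. The mean log2 value of the 12 was 13.01 and 13.04 on the knockdown arrays and 13.03 and 13.00 on the control arrays. The array medians were 8.55 and 8.53 in knockdown cells and 8.49 and 8.51 in control cells.

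The title of the series speaks of CpG islands, so the promoters of these genes were read for CpG dinucleotides. RefSeq promoter windows of build GRCm38.p6, each 300 bases with 250 before the start of the gene and 50 after it, were available for 7 of the 10 genes, with 9 windows in all. Pecam1, Cdh5 and Lmo2 had none. The 250 bases before the start are given 5′ to 3′ for the Kdr window, both Runx1 windows and the Flt1 and Gata1 windows, with each CpG in capitals and the strand in brackets. They are shown because they span the CpG-poor and CpG-rich ends of these genes, both within Runx1 and between genes that did and did not change.
Kdr, chr5:75978456-75978705 (-): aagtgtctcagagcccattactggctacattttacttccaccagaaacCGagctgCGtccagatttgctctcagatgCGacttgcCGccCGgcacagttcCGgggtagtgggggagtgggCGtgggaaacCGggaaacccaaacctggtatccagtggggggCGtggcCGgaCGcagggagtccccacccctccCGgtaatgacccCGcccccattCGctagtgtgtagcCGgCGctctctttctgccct
Runx1 window A, chr16:92697330-92697579 (-): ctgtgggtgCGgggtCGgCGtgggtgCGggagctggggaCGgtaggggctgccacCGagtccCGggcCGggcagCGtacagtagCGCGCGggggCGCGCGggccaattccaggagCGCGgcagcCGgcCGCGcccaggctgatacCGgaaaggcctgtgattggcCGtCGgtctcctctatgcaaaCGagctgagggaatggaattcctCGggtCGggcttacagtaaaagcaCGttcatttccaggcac
Runx1 window B, chr16:92826075-92826324 (-): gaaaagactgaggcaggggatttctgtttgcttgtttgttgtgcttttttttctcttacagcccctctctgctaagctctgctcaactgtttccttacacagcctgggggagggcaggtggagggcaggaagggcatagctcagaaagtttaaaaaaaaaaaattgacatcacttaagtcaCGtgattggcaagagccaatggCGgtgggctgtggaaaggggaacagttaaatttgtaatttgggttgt
Flt1, chr5:147726012-147726261 (-): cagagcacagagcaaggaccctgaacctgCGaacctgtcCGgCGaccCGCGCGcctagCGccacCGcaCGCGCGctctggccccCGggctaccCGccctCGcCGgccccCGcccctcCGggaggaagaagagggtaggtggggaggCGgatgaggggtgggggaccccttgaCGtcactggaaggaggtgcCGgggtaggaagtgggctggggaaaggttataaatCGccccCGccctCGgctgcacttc
Gata1, chrX:7967911-7968160 (-): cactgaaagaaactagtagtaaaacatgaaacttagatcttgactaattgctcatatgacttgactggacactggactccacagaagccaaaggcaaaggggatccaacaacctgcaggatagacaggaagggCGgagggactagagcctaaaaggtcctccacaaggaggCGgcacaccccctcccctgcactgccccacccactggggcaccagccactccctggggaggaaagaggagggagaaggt

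The full Kdr window held 19 CpG, more than 71.9% of the 32851 windows in the table, whose median was 7. Runx1 has a window on each of its start sites. Window A held 35 CpG, more than 93.0% of all windows, and window B held 2, more than 14.1%. The probe set reports the gene as a whole, so which start was used on these arrays was not measured. Flt1 had 29 CpG and the windows of Tal1 had 22 and 11. Etv2, Gata1 and Tek had 5, 4 and 3 CpG, below the median of the table.

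Of the 4 genes with the richest windows, Runx1 and Kdr rose, while Flt1 and Tal1 did not pass the test. The CpG-poor Tek, Etv2 and Gata1 did not pass either. Tek and Gata1 were the genes of the 7 with log2 fold changes below 0, but both values hung on single arrays. That of Tek moved to 0.04 without knockdown replicate 2, and that of Gata1 to -0.025 without control replicate 1. Cdh5 and Lmo2, which rose, and Pecam1, which fell, had no window and are not part of this reading. Whether CpG content and change are related among these few genes was not tested. Across all measured genes with a window, the richest window of a gene held a median of 16 CpG, against 19 for Kdr. Described without a test, 6.36% of the 8116 genes with at least 16 CpG there were higher after knockdown and 8.85% lower. Among the 7498 genes with fewer, 3.48% were higher and 5.87% lower. Binding sites were read as letters only. GATAA or its reverse TTATC, letters that GATA factors bind, occurred in 2 of the 9 windows (Tek and the CpG-poorer Tal1 window) and in 25.4% of all windows. GGAA or TTCC, the core of ETS sites, occurred 2 to 11 times in each of the 9 windows, with the highest count at Etv2, and in 96.0% of all windows. The E-box CANNTG, which reads the same on both strands, occurred in 5 of the 9 and in 72.3% of all windows. Occurrences of different motifs may share bases.

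**Figure D1:**
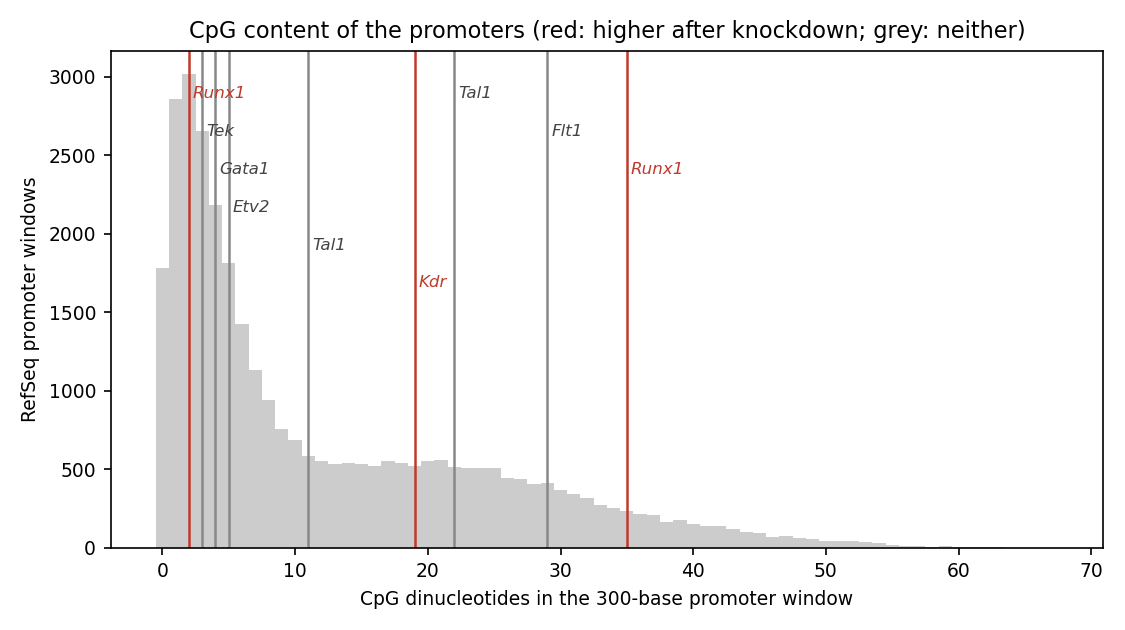
Number of RefSeq promoter windows (vertical axis) by CpG dinucleotides per 300-base window (horizontal axis), with a line at each window of a blood or endothelial gene. The Runx1 windows lie near opposite ends, at 2 and 35 CpG, and Kdr lies at 19.

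Of the 10 genes, 4 were higher and 1 was lower after Kdm2b knockdown, and 5 were neither. Runx1, Cdh5, Kdr and Lmo2 rose and Pecam1 fell. A gene is called higher or lower where its adjusted p is under 0.05 in limma, a linear model fitted to all 19938 genes with Benjamini-Hochberg adjustment over them. Over all genes 5.00% were called higher and 7.19% lower, together 12.2%. Levels are log2 values, so a difference of 1 is a doubling. The median log2 fold change of the 10 genes was 0.115, against 0.03 over all genes. The knockdown arrays lay clear of the control arrays, on one side or the other, for 8 of the 10 genes and for 58.8% of all genes. Because these are bulk samples, more RNA per cell and more cells of a type cannot be told apart.

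**Figure D2:**
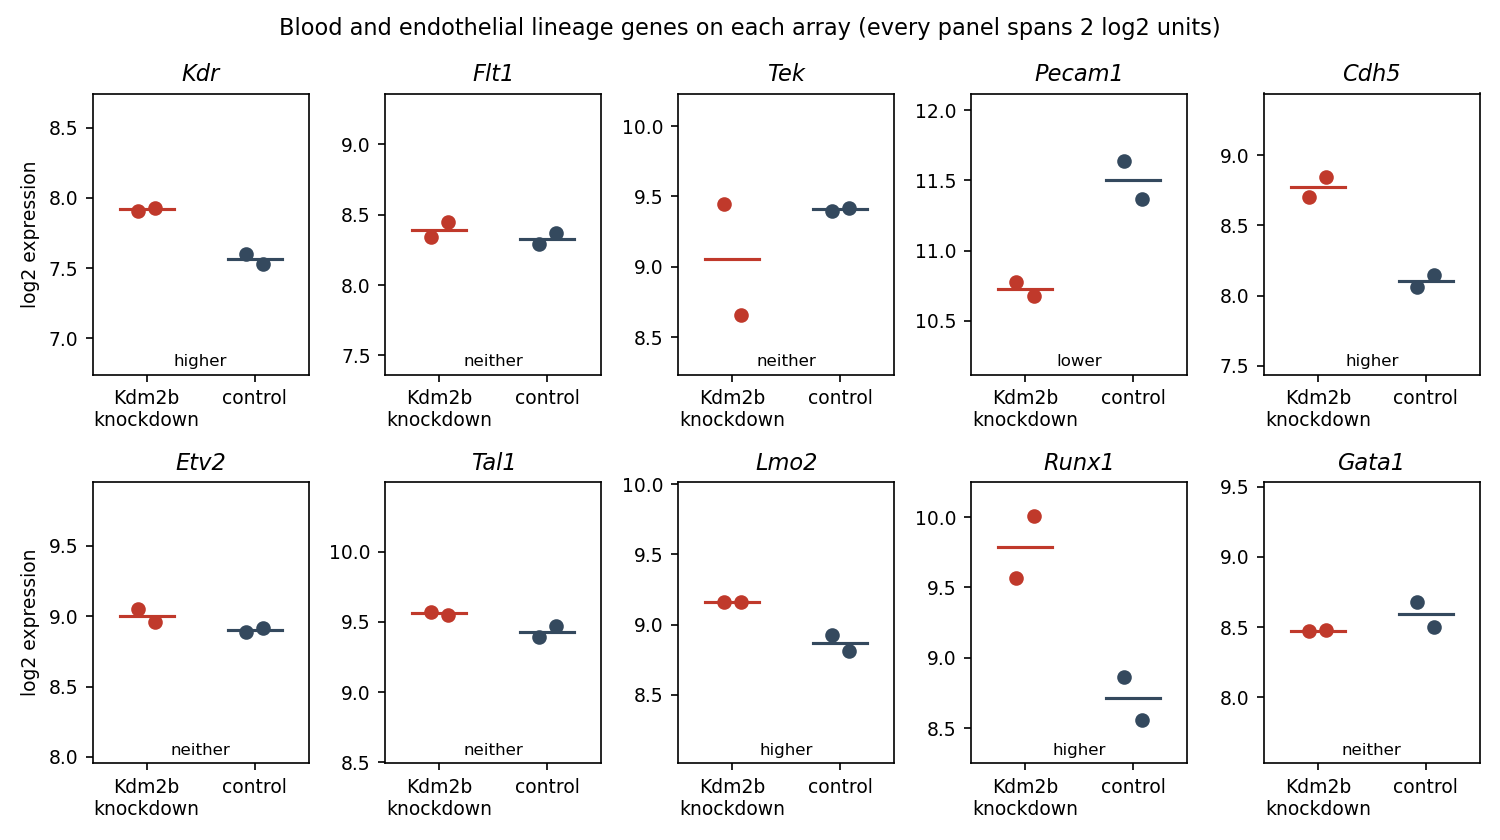
Log2 expression of each gene (vertical axes, each spanning 2 log2 units) on the 2 knockdown arrays (red, left) and 2 control arrays (dark, right), with a line at the group mean and the call under the points. Runx1, Cdh5, Kdr and Lmo2 lie higher on both knockdown arrays, Pecam1 lies lower, and Tek is split between its knockdown arrays.

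Kdr encodes the main signalling receptor for vascular endothelial growth factor A and is an early marker of this mesoderm. It had log2 values of 7.91 and 7.93 in knockdown cells, against 7.60 and 7.53 in control cells. Both knockdown arrays lay above both control arrays, and the gap was several times the difference within either group. The log2 fold change was 0.36 (SE 0.063, 95% interval 0.20 to 0.51), with an adjusted p of 0.0232 in limma. In fold terms Kdr was 1.28-fold higher. Its probe set was dim. The means of 1015 olfactory receptor genes, used as a scale for low signal and chosen after values had been seen, ran from 4.06 to 8.19 in their central 95%. Kdr, with a mean of 7.74 over the 4 arrays, was the 1 gene of the 10 inside that range. The mean of Cdh5 lay above the range, but its control values, 8.06 and 8.15, lay inside it. Brightness depends on the probes, so this scale does not rank genes by amount of RNA.

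Flt1 encodes the other receptor for vascular endothelial growth factor A, which binds it tightly and limits its supply to Kdr. It read 8.34 and 8.45 in knockdown cells, against 8.29 and 8.37 in control cells. The groups overlapped, and the log2 fold change of 0.07 (SE 0.071) had an interval from -0.11 to 0.24 (adjusted p = 0.587, limma). A change in Flt1 of the size seen in Kdr lies outside that interval. Whether the changes of Kdr and Flt1 differ was not tested.

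Tek, the receptor for angiopoietins on endothelial cells, differed mainly between the replicate arrays of knockdown cells. It had log2 values of 9.45 and 8.66 in knockdown cells, against 9.40 and 9.42 in control cells. The first knockdown array stood beside the controls and the second stood apart from the other arrays. The log2 fold change of -0.36 (SE 0.24) had an adjusted p of 0.368 in limma, and it moved to 0.04 when knockdown replicate 2 was left out. Leaving out knockdown replicate 1 gave -0.75.

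The adhesion genes moved in opposite directions. Cdh5 encodes VE-cadherin, which joins endothelial cells to each other. It had log2 values of 8.70 and 8.84 in knockdown cells, against 8.06 and 8.15 in control cells. The control values lay in the low-signal range of the olfactory receptor genes. The groups were clear of each other, and Cdh5 was 1.59-fold higher, with a log2 fold change of 0.67 (limma SE 0.077, with an adjusted p of 0.00911). Pecam1 encodes CD31, an endothelial and platelet adhesion protein that is also on the surface of undifferentiated mouse stem cells. Its log2 values were 10.78 and 10.68 in knockdown cells, against 11.64 and 11.37 in control cells. Both knockdown arrays lay below both control arrays, and Pecam1 was 1.71-fold lower, with a log2 fold change of -0.78 (limma SE 0.10, with an adjusted p of 0.0121).

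Among the transcription factors Runx1 changed most, and its change was the largest of the 10 genes. It had log2 values of 9.57 and 10.01 in knockdown cells, against 8.86 and 8.56 in control cells. The groups did not overlap, although replicates differed by 0.44 in knockdown cells and by 0.30 in control cells. Runx1 was 2.11-fold higher, with a log2 fold change of 1.08 (SE 0.17, 95% interval 0.67 to 1.49) and an adjusted p of 0.0164 in limma. The knockdown array with more Runx1 was replicate 2, which also had more Gata6, the endoderm regulator, with 11.74 and 12.60 in knockdown cells and 10.07 and 10.04 in control cells.

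Lmo2, the bridging protein that holds Tal1 to its partners on DNA, read 9.16 on both knockdown arrays, against 8.93 and 8.81 in control cells. It was 1.22-fold higher, a log2 fold change of 0.29 (SE 0.069) whose adjusted p of 0.0488 in limma lay just inside the threshold. That call was lost after quantile normalization (adjusted p = 0.0598), after centring on array medians (0.0774) and where the prior followed intensity (0.0507). Its log2 fold changes under these settings were 0.27, 0.25 and 0.29.

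Tal1, the bHLH factor of that complex, read 9.57 and 9.55 in knockdown cells, against 9.39 and 9.47 in control cells. The knockdown arrays lay above the controls, but the log2 fold change of 0.13 (SE 0.064) did not pass (adjusted p = 0.238, limma). Etv2, the ETS factor upstream in the program, read 9.05 and 8.96 in knockdown cells, against 8.89 and 8.92 in control cells. These arrays too were separate, though only just, and the log2 fold change of 0.10 (SE 0.065) had an adjusted p of 0.359 in limma. Gata1, the red cell and megakaryocyte factor on the X chromosome, read 8.47 and 8.48 in knockdown cells, against 8.68 and 8.50 in control cells. The knockdown arrays lay just below both controls, and the log2 fold change of -0.12 (SE 0.079) did not pass (adjusted p = 0.381, limma).

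**Figure D3:**
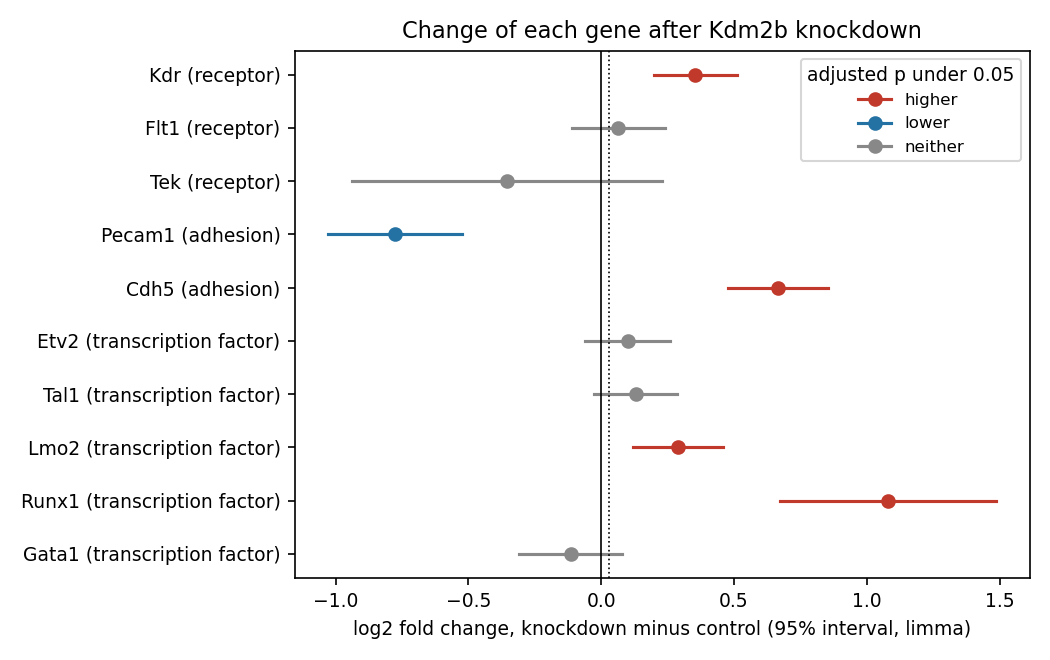
Log2 fold change of each gene, knockdown minus control (horizontal axis), with its 95% interval from limma, coloured by call, and a dotted line at the median of all genes, 0.03. The intervals of Kdr, Cdh5, Lmo2 and Runx1 lie above 0 and that of Pecam1 below it.

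Each of these calls needs all 4 arrays, as does every call over all genes, that of Kdm2b among them. Even with all 4 arrays, no gene was called where every probe set, with or without a symbol, was fitted and adjusted. Nor was any called with replicate number as a block. A fit on 3 arrays leaves 1 array in a group and 1 residual degree of freedom, so only its effect sizes are given here. The directions of the 5 called genes were the same in each such fit. Runx1 ran from 0.86 without knockdown replicate 2 to 1.30 without knockdown replicate 1, Cdh5 from 0.60 to 0.74, Pecam1 from -0.91 to -0.64, Kdr from 0.32 to 0.39 and Lmo2 from 0.23 to 0.35. With 2 arrays against 2, an exact two-sided permutation test of a single gene cannot give a p below 0.333.

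**Figure D4:**
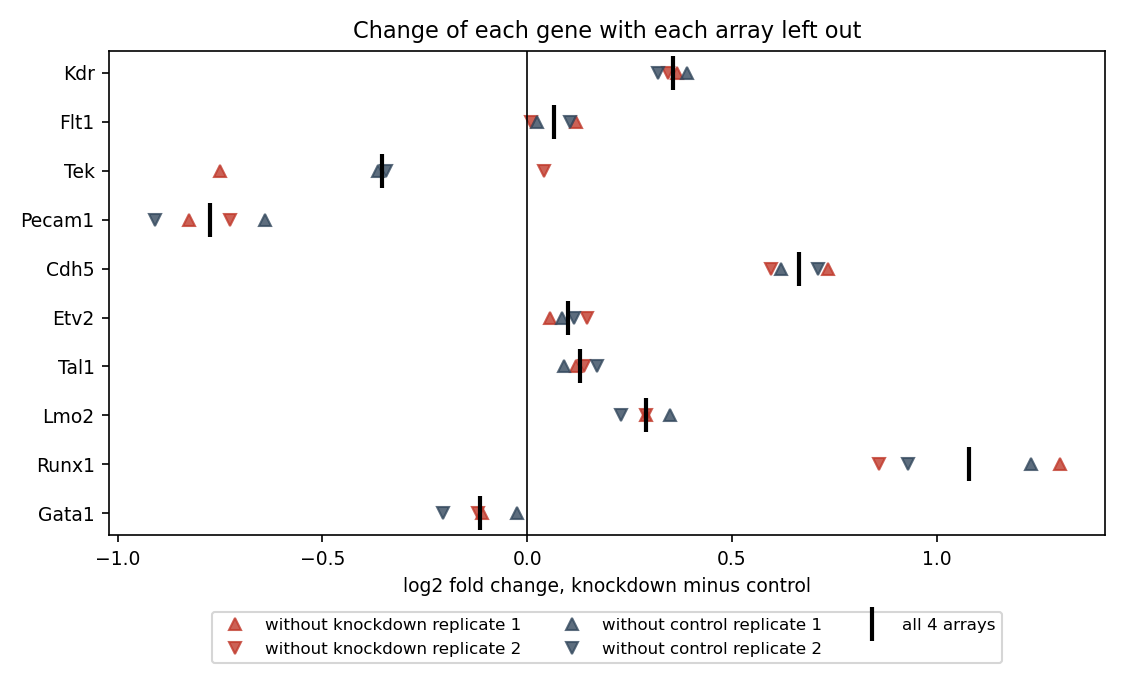
Log2 fold change of each gene, knockdown minus control (horizontal axis), with all 4 arrays (bar) and with each array left out (triangles, red for a knockdown array and dark for a control array). Only Tek has points on both sides of 0, from -0.75 to 0.04.

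The rest of the vascular program was read from a list of 35 further endothelial and VEGF pathway genes, all of them on the array. The test called 5 of them higher and 2 lower and left 28 uncalled, and the median log2 fold change was 0.04. Esam, an adhesion molecule of endothelial tight junctions, had log2 values of 9.07 and 9.35 in knockdown cells, against 7.94 and 8.07 in control cells. It rose by 1.21 in log2 units (limma SE 0.11, with an adjusted p of 0.00584). Its control values lie in the low-signal range of the olfactory receptor genes. Robo4, the endothelial member of the roundabout receptors, read 10.21 and 10.46 in knockdown cells, against 9.34 and 9.39 in control cells, and rose by 0.97. Both were well separated from the controls. Vegfc, a ligand for the growth of lymphatic vessels, rose by 0.70 (limma SE 0.061, with an adjusted p of 0.00557).

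The coreceptors for these ligands moved apart. Nrp2 had log2 values of 8.48 and 8.54 in knockdown cells, against 9.88 and 9.69 in control cells, and fell by 1.27 in log2 units (limma SE 0.083, with an adjusted p of 0.0049), the largest fall of the list. Nrp1 rose by 0.47, the SoxF factor Sox17 rose by 0.53 and the ligand gene Vegfb fell by 0.29. The means of Nrp1 and Sox17, at 7.55 and 8.19, lie in the low-signal range of the olfactory receptor genes. Nrp1, Sox17 and Vegfb complete the called genes and were chosen after their values were seen, as were the further receptor and ligand genes named next. Flt4, the receptor of Vegfc, had a log2 fold change of 0.35 (SE 0.088) that did not pass, and Vegfa one of -0.32 (SE 0.12). Tie1, the partner receptor of Tek, had -0.06, Angpt1, the ligand that activates Tek, 0.01 and Angpt2, its context-dependent antagonist, -0.20. None of these passed. The means of Angpt1 and Angpt2, at 5.755 and 7.45, also lie in the low-signal range.

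Of 25 measured blood transcription factors and partners, 2 were higher, 3 lower and 20 neither, with a median log2 fold change of 0.005. Lmo4, a LIM-only relative of Lmo2, read 11.32 on both knockdown arrays, against 10.33 and 10.34 in control cells, and rose by 0.98 in log2 units (limma SE 0.059, with an adjusted p of 0.0049). Meis1, a homeobox cofactor of blood stem cells, rose by 0.37 (limma SE 0.083, with an adjusted p of 0.0426), a call lost after quantile normalization (0.0691) and after centring on array medians (0.0556). Its mean of 7.86 lies within the low-signal range of the olfactory receptor genes. Myb, a regulator of blood progenitors, had log2 values of 9.72 and 9.11 in knockdown cells, against 10.69 and 10.48 in control cells, and fell by 1.17 (limma SE 0.20, with an adjusted p of 0.0203). Gata2, the GATA factor of blood progenitors, fell by 0.44, and Spi1, the myeloid factor PU.1, chosen after its value was seen, by 0.36. Partners of Lmo2, Runx1 and Tal1 on this list were also named after their values were seen, and none passed. Ldb1, the adaptor of the complex with Lmo2 and Tal1, had a log2 fold change of -0.04, and Cbfb, the partner subunit of Runx1, had one of 0.12. Of the E proteins that pair with Tal1 on DNA, Tcf3 had a log2 fold change of -0.04 and Tcf12 one of 0.36 (limma SE 0.11, with an adjusted p of 0.0922), with both knockdown arrays above both control arrays for Tcf12.

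Of 20 measured effector genes of blood cells 1 was higher, 1 lower and 18 neither, a share called close to the 12.2% of all genes, with a median log2 fold change of 0.0875. Cd34, a surface protein of blood progenitors and endothelium, read 10.60 and 10.23 in knockdown cells, against 9.69 and 9.70 in control cells, and rose by 0.72 (limma SE 0.12, with an adjusted p of 0.0209). Kit, the stem cell factor receptor that these stem cells also carry, read 10.79 and 10.85 in knockdown cells, against 11.32 and 11.24 in control cells, and fell by 0.46 (limma SE 0.066, with an adjusted p of 0.0145). Embryonic globin and leukocyte genes, named here after their values were seen, did not pass. The log2 fold change was 0.005 for Hbb-bh1, 0.11 for Hbb-y and 0.18 for the leukocyte marker Ptprc. Their means, at 5.83, 7.09 and 7.31, lie in the low-signal range of the olfactory receptor genes. Not all genes of these kinds were so dim. The embryonic globin gene Hba-x and the leukocyte genes Spn and Cd68 had means of 8.33, 9.115 and 11.16, above that range. Their log2 fold changes were 0.145, 0.07 and -0.145.

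A list of early mesoderm regulators, with cardiac and muscle factors among them, gave 4 higher, 0 lower and 14 neither of 18 measured, with a median of 0.0925. The cardiac T-box gene Tbx20 rose by 1.32, Eomes by 0.92, the ligand Bmp4 by 0.61 and Mef2c, a muscle and vessel factor, by 0.36, with a mean of 7.31 in the low-signal range. The control values of Tbx20, 8.14 and 8.15, also lie in that range. Mesp1 and Mixl1, chosen after their values were seen as the regulators closest in time to Kdr, had log2 fold changes of 0.07 and -0.06, which did not pass. The mean of Mesp1, at 7.42, lies in the low-signal range too.

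Among markers of other cell types, the shift lay mainly in those of primitive endoderm. The median log2 fold changes of the trophectoderm and the fibroblast and feeder lists were 0.06 and 0.045. Of 13 primitive endoderm markers 5 were higher, 0 lower and 8 neither, with a median of 0.505. Their mean log2 value was 9.693 and 10.01 on the knockdown arrays, against 9.303 and 9.141 on the control arrays. Knockdown replicate 2 was thus the highest, as it was for Runx1, Cdh5, Kdr (7.93 against 7.91) and Flt1. Knockdown replicate 1 was the highest for Tek, Etv2 and Tal1, and Lmo2 read the same on both knockdown arrays. A control array was the highest for Pecam1 and Gata1. Lists shared genes: Sox17 and Sox7 are on the primitive endoderm list and the endothelial one. Pdgfra is on the primitive endoderm list and that of mesoderm regulators. Pdgfra had the largest log2 fold change of the mesoderm list, 1.52 (limma SE 0.39, with an adjusted p of 0.0578), and did not pass, nor did Sox7 at 0.70. Eomes, which was called, and Hand1 are on the mesoderm and trophectoderm lists, and Gata3 is on those of blood factors and trophectoderm. Of 11 fibroblast and feeder markers 1 was higher, 2 lower and 8 neither, and the mean was 8.654 and 8.629 on the knockdown arrays and 8.645 and 8.665 on the control arrays. Trophectoderm markers gave 3 higher and 1 lower of 11, with means of 8.976 and 8.925 on the knockdown arrays, against 8.928 and 8.873 on the control arrays. The array gives no value of 0, so no marker can be called absent from it. The part of these cell types in the changes of the blood and endothelial genes was not tested.

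**Figure D5:**
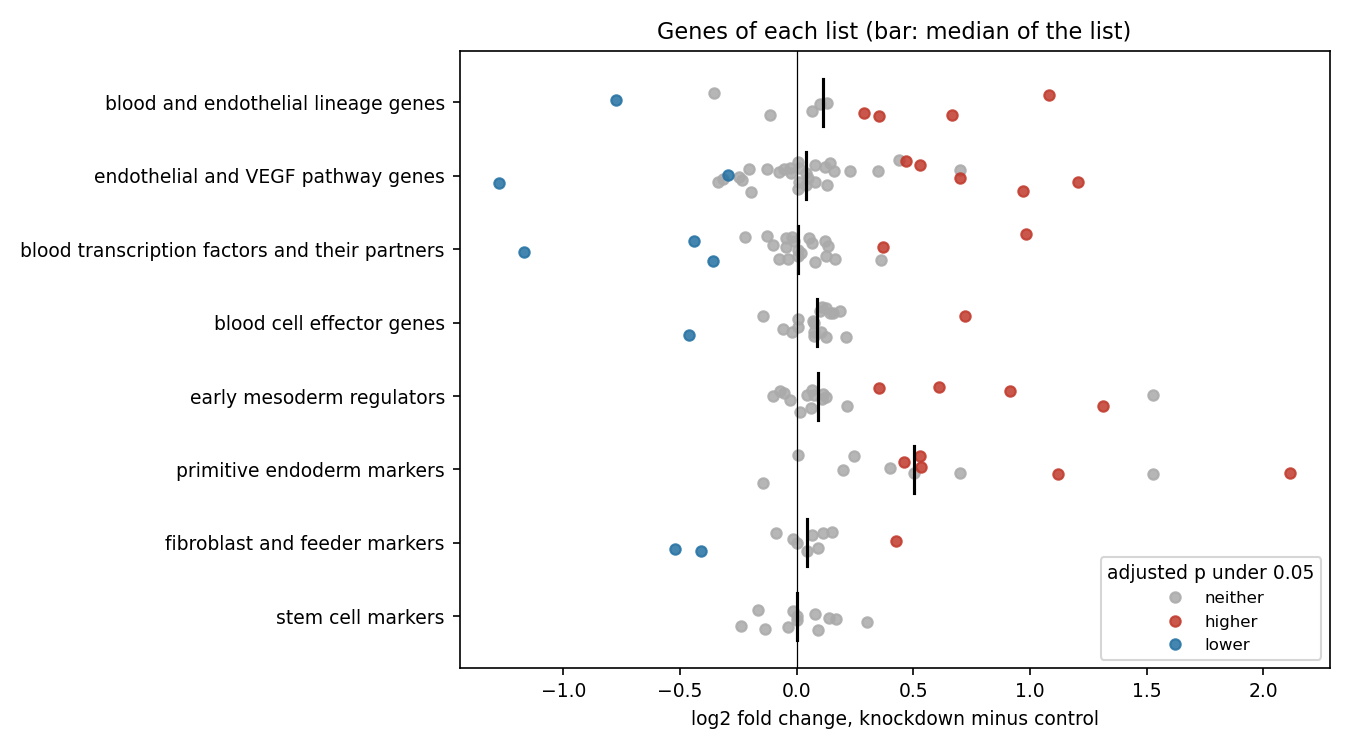
Log2 fold change of each gene, knockdown minus control (horizontal axis), for the blood and endothelial lineage genes, 4 lists of related genes and 3 lists of cell type markers, coloured by call, with a bar at each median. The primitive endoderm markers have the highest median, 0.505, against 0.115 for the blood and endothelial lineage genes.

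By Euclidean distance of values centred per gene over the 4 arrays, the genes most like Runx1 were Cntfr, Foxq1 and Islr2, at distances of 0.124, 0.139 and 0.227 log2 units. Cntfr, a cytokine receptor subunit, read 11.67 and 11.95 in knockdown cells, against 10.84 and 10.52 in control cells. These 3 genes had log2 fold changes of 1.13, 1.02 and 1.02.

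Of 20 measured neighbours of the 10 genes in RefSeq, the nearest on each side, 0 were higher, 4 lower and 16 neither, against 5.00% higher and 7.19% lower over all genes. The gaps ran from 0.721 kb (Tek to Eqtn) to 1316 kb (Cdh5 to Cdh11), so some of these neighbours lie far away. Kit, on one side of Kdr, fell by 0.46 while Kdr rose by 0.36, and Srd5a3 on the other side had a log2 fold change of -0.03. The neighbours of Runx1, Clic6 and Setd4, each had 0.13, and those of Cdh5, Cdh11 and Bean1, had 0.10 and 0.12, and none of these 4 passed. Tex2 beside Pecam1 fell by 0.33, Stil beside Tal1 by 0.48 and Glod5 beside Gata1 by 1.73.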

How the data were processed

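RNA of 2 knockdown and 2 control samples was measured on Affymetrix MoGene 1.0 ST arrays. The deposited table holds log2 expression for 35557 probe sets. Per the submitters' processing notes, the authors made them with Affymetrix Expression Console. Its version, its background and summary steps and its scaling of arrays are not given in the sources used. The values, 3.12 to 14.74 and not centred per gene, identified the scale as log2. The number of arrays limits the precision.

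Platform annotation gave 1 symbol for 21789 probe sets, several for 1621 and none for 12147. The brightest probe set per gene gave 19938 genes. Groups were taken from sample titles and compared with limma 3.58.1 in R 4.3.3 (lmFit, eBayes, group as the only term, two-sided). The fit was checked on simulated data. Older list symbols were matched through RefSeq synonyms (Figf to Vegfd, Emr1 to Adgre1, and Foxf1a to Foxf1, already listed), and 7 listed entries had no match.

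The members and lists were chosen with earlier results of these data known. The text names every member, Kdm2b, Pou5f1, Sox2, Nanog, up to 4 called genes of each related list by size of change, the neighbours, and the 3 genes most like the called member with the largest change. Other genes are said in the text to have been chosen after their values were seen; Gata6 was too. As alternatives, a block for replicate number was fitted, and each array was left out, along with 2 scalings, a filter on dim genes, other probe set rules, other priors, all probe sets and other thresholds.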

Additional observations from a re-analysis of the deposited data

How the results depend on the processing

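Over 147 values of the 10 genes under alternatives, 111 kept their direction and side of the threshold, 35 kept direction only, and 1 turned: Tek, at -0.75 to 0.04 over the fits that omit an array. Eqtn (-0.155 to 0.085) and Srd5a3 (-0.095 to 0.035), neighbouring genes that were not called, also turned with an array left out. For the 10 genes, only the fits that omit an array and the 2 scalings could change a direction. The other settings leave their log2 fold changes as they were, so a kept direction there carries no information. With each array left out, the count of calls was 0 to 0 in each direction for all genes, for the 10 genes and for each related list, while 3495 to 4215 genes had an unadjusted p under 0.05. The replicate number as a block gave 0 calls in each of these sets as well, with 5411 genes and the same 5 of the 10 at an unadjusted p under 0.05. The number is only a shared label, and deviations of same-numbered arrays correlated at 0.0954. These fits leave 1 residual degree of freedom. Fitting and adjusting over every probe set of the table also gave 0 in each set, with 4931 of the 19938 genes, and 5 of the 10, at an unadjusted p under 0.05. An adjusted p under 0.1 gave 1920 higher and 2236 lower of all genes, 8 and 5 endothelial and VEGF pathway genes and 2 higher blood cell effector genes. A fold of at least 1.5 as well left 240 higher and 447 lower, 2 higher of the 10, 3 higher and 1 lower endothelial genes, 1 and 1 blood transcription factors and 0 lower effector genes. Without dim genes, 7 of the 10 remained to be tested, with 2 higher, against 3 higher and 4 lower endothelial genes and 1 higher blood factor. Centring on array medians gave 4 lower endothelial genes and 1 higher blood factor, and quantile normalization 1 higher blood factor, with Meis1 the one lost under both. The median of the 10 genes was 0.0875 to 0.142 with each array left out. No Dixon test was possible with 2 arrays per group.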
